A study of Mus musculus with 6 samples.

Results

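The citric acid cycle burns acetyl groups to carbon dioxide in the mitochondrial matrix and hands the electrons, as NADH and FADH2, to the respiratory chain. The 9 genes described here encode most of its enzymes: citrate synthase (Cs), isocitrate dehydrogenases (Idh2 and Idh3a), 2-oxoglutarate dehydrogenase (Ogdh and Dlst), succinyl-CoA synthetase (Suclg1 and Sucla2), fumarase (Fh1) and malate dehydrogenase (Mdh2). They were chosen by symbol with earlier results of these data known, so the list as a whole was not tested. Every probe set annotated to 1 of these symbols alone was used. That gave 22 probe sets for 9 of the 18029 genes on the array. A probe set is a group of short array probes for 1 transcript. In the adult heart the cycle runs mainly on acetyl-CoA from fatty acids, cardiomyocytes are densely packed with mitochondria, and the cycle's output is tied to contraction.

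Hearts came from C57BL/6 mice of 2 genotypes, Flox wild type (n = 3) and Tmbim1 KO (n = 3), hybridised to 1 array each. Both groups were aged 8 weeks in the study's description and had aortic banding, spelled binding in the labels, for 2 weeks, so the controls carried the pressure load too. The labels name no Cre driver and do not say in which cells Tmbim1 was deleted, and hearts without surgery were not analysed here. The mice are described as biological replicates.

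Levels below are RMA log2 signals, so a difference of -1 is a halving of the signal, and levels of different probe sets are not ranked against each other. The knockout was compared with the wild type by limma over all 38195 probe sets, two-sided, with Benjamini-Hochberg adjustment at 0.05. Differences are knockout minus wild type, and the brightest probe set of a gene over all 6 arrays is called its main one. Tmbim1 read 8.58, 8.38 and 8.33 in wild type hearts and 7.53, 7.49 and 7.56 in knockout hearts. It differed by -0.91 (SE 0.10, adjusted p = 0.00579 by limma). Where its probe set lies relative to the deletion is not given in the sources used here. The arrays correlated at 0.989 to 0.996. Wild type replicate 3 stood apart on the first principal component (-37.0, against -9.65 and -8.48 for the other wild type arrays), and knockout replicate 1 had a mean of 10.09 over 8 atrial marker genes, against 5.55 to 5.85 on the other arrays. Results are therefore also given without these 2 arrays. All 12 cardiomyocyte markers had a mean signal at or above the 98.1st percentile of probe sets.

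All 9 enzymes had a lower mean signal in knockout hearts at their main probe set, and 0 of the 22 probe sets passed the limma threshold over the whole array. The differences ran from -0.44 for Idh2 to -0.10 for Idh3a, with a median of -0.25, where the median over all 18029 genes was -0.0020 and 50.6% of them were negative. An adjusted p under 0.05 was reached by 0.422% of all probe sets, and the lowest adjusted p among the members was 0.145. At an unadjusted limma p under 0.05, 10 of the 22 probe sets were lower and 0 were higher, where 5.82% of all probe sets were lower and 4.74% higher. In 12 of the 22, each knockout heart lay below each wild type heart, as in 8.42% of all probe sets. At the main probe sets this held for 5 of the 9 genes, against 9.38% of all genes, and 5 had an unadjusted limma p under 0.05, against 6.33%. Among the lists given below, knockout hearts lay wholly below wild type in 8 of 12 cardiomyocyte markers and 7 of 16 side reaction genes. For pyruvate entry it was 5 of 12, for mitochondrial upkeep 5 of 13 and for other cycle subunits 4 of 10. For endothelial markers it was 1 of 10, and for fibroblast and macrophage markers 0. Probe sets of 1 gene share their transcripts, so the 22 are not independent. Because the genes were chosen with earlier results known, these counts and shares are descriptions and not a test of the list. In whole heart tissue, fewer cells of a type and less RNA per cell cannot be told apart.

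**Figure D1:**
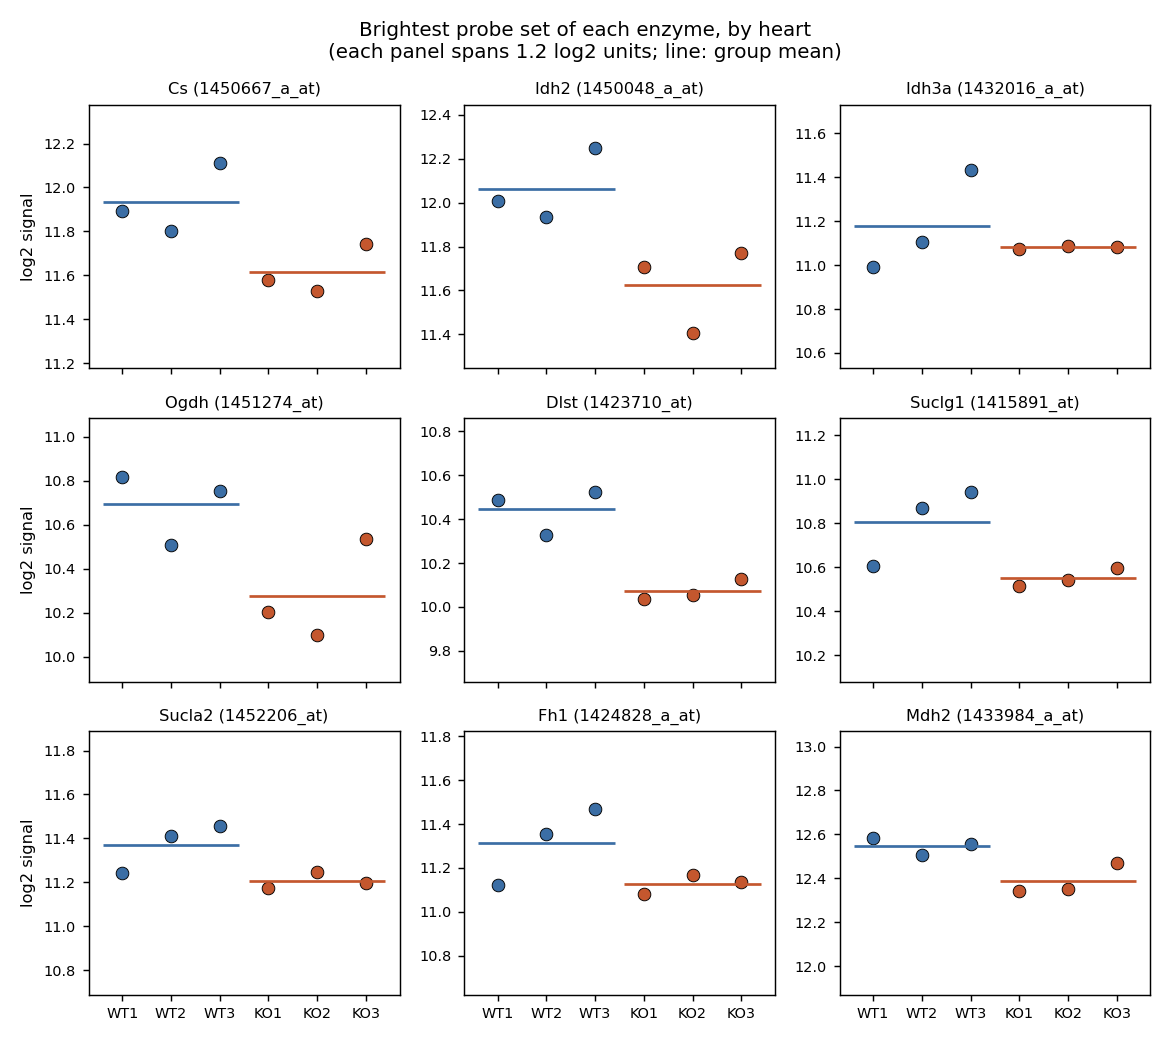
Log2 signal (y axis) of the main probe set of each of the 9 enzymes in the 3 wild type (WT, blue) and 3 knockout (KO, orange) hearts (x axis), with a line at each group mean. The knockout mean is lower in all 9 panels, and wild type replicate 3 is the highest heart in 7 of them.

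Entry into the cycle is the work of citrate synthase, which joins acetyl-CoA to oxaloacetate and whose activity is widely used as a measure of mitochondrial content. The arrays read its RNA and not its activity. The main probe set of Cs (1450667_a_at) read 11.89, 11.80 and 12.11 in wild type hearts and 11.58, 11.53 and 11.74 in knockout hearts. The groups did not overlap, although the lowest wild type and the highest knockout heart were only 0.059 apart. Means were 11.94 ± 0.16 and 11.62 ± 0.11 (SD, n = 3 each). Cs thus differed by -0.32 (SE 0.11, adjusted p = 0.328 by limma), which is 1.25-fold. The other probe sets of Cs gave similar differences, -0.43 for 1422578_at (SE 0.11, adjusted p = 0.178) and -0.35 for 1422577_at (SE 0.10, adjusted p = 0.232). In 1422578_at the wild type hearts lay at 11.78, 11.64 and 11.96 and the knockout hearts at 11.36, 11.25 and 11.48. In 1422577_at they lay at 9.82, 9.90 and 10.06 and at 9.66, 9.50 and 9.58. All 3 probe sets of Cs separated the groups, and all 3 had a 95% interval below 0. Leaving out wild type replicate 3 gave -0.23, -0.35 and -0.28.

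Isocitrate is oxidised by 2 mitochondrial enzymes, the NADP-dependent IDH2, which supplies NADPH for antioxidant defence, and the NAD-dependent IDH3, a regulated step of the cycle whose catalytic subunit is IDH3A. Idh2 (1450048_a_at) had the most negative main probe set difference of the 9 genes. It read 12.01, 11.93 and 12.25 in wild type and 11.71, 11.40 and 11.77 in knockout hearts, with no overlap and with knockout replicate 2 the lowest. The difference was -0.44 (SE 0.13, adjusted p = 0.227 by limma), 1.35-fold, with a 95% interval from -0.72 to -0.15. The second probe set of Idh2, 1453601_at, is dim, with a wild type mean of 3.75 below the array medians of 4.24 to 4.28, and differed by -0.17 (adjusted p = 0.754), or -0.038 without wild type replicate 3.

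The 4 probe sets of Idh3a did not give the same picture. The main one, 1432016_a_at, read 10.99, 11.10 and 11.43 in wild type hearts and 11.07, 11.09 and 11.08 in knockout hearts. Its groups overlapped, and the difference of -0.10 (SE 0.12, limma adjusted p = 0.862) rested on wild type replicate 3, without which it was 0.032. In 1422500_at the hearts read 8.34, 8.27 and 8.68 against 7.79, 7.96 and 7.97, which do not overlap. That difference of -0.52 (SE 0.12, adjusted p = 0.145) was the most negative of all 22 probe sets, with a 95% interval from -0.80 to -0.24. It was -0.39 without wild type replicate 3 and -0.46 without knockout replicate 1. Probe set 1422501_s_at read 9.51, 9.44 and 9.99 against 9.14, 9.28 and 9.20, a difference of -0.44 (adjusted p = 0.279) that was -0.27 without wild type replicate 3 and -0.23 without both arrays. The dimmer 1447701_x_at read 5.76, 5.75 and 6.01 against 5.41, 5.58 and 5.67, a difference of -0.29 (adjusted p = 0.398), or -0.13 without both arrays. These 2 carry Affymetrix suffixes that mark probes shared with other transcripts. The signal of the main probe set minus that of 1422500_at was 2.66, 2.84 and 2.76 in wild type and 3.28, 3.13 and 3.11 in knockout hearts, values that compare hearts and not the 2 probe sets' levels. This contrast within 1 gene was picked after its values were seen and was not tested. Which transcript forms each probe set reads is not given in the sources used here.

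**Figure D2:**
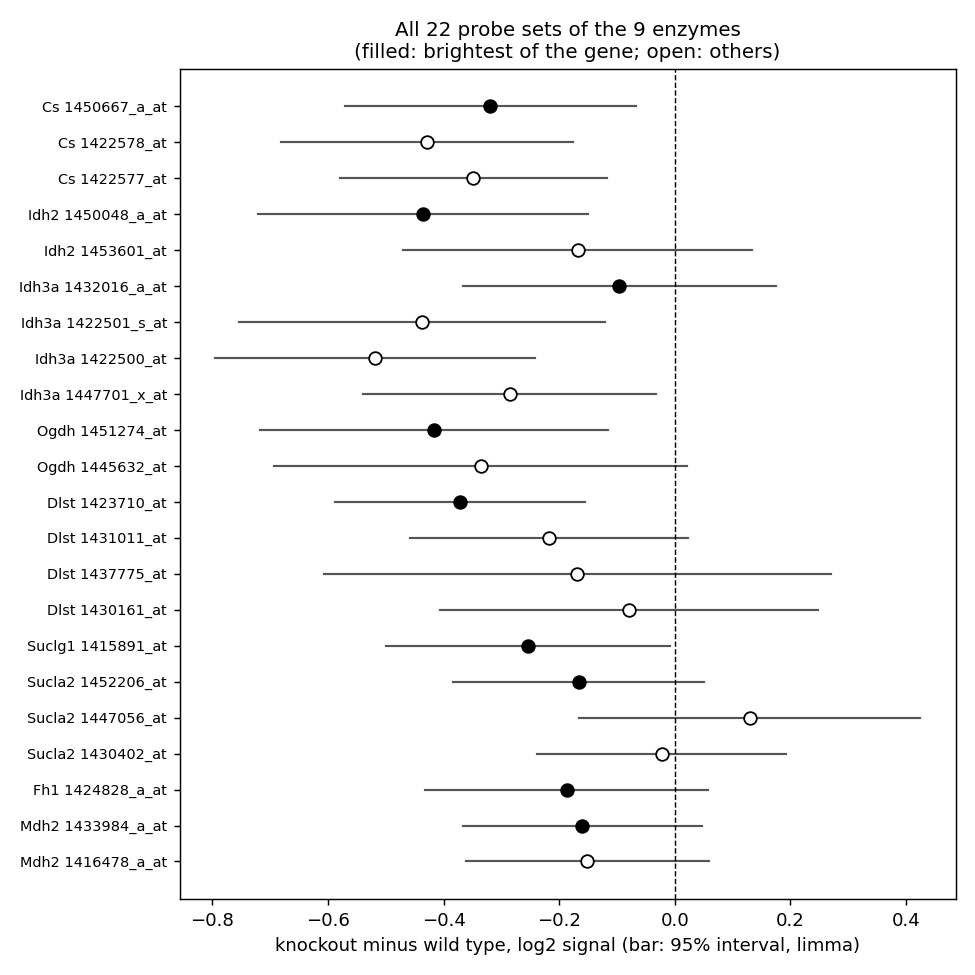
Difference between knockout and wild type hearts in log2 signal (x axis) with its 95% limma interval (bar) for all 22 probe sets (y axis). Filled points are the main probe set of a gene and open points the others. The points run from -0.52 (Idh3a 1422500_at) to 0.13 (Sucla2 1447056_at), and 21 of 22 lie below 0.

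The 2-oxoglutarate dehydrogenase complex makes succinyl-CoA and NADH. OGDH is its first component, DLST carries the succinyl group, and DLD, shared with pyruvate dehydrogenase, restores the lipoyl arm. Ogdh (1451274_at) read 10.82, 10.51 and 10.76 in wild type hearts and 10.20, 10.10 and 10.53 in knockout hearts. Knockout replicate 3 lay just above wild type replicate 2, so the groups overlapped. The difference was -0.42 (SE 0.14, limma adjusted p = 0.278) or 1.33-fold. The dimmer 1445632_at read 6.55, 6.42 and 6.41 against 5.75, 6.16 and 6.46, a difference of -0.34 (adjusted p = 0.507) that was -0.15 without knockout replicate 1, the lowest heart.

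Dlst had the lowest unadjusted p among the main probe sets (0.00342). Its main probe set, 1423710_at, read 10.49, 10.33 and 10.52 in wild type hearts and 10.04, 10.06 and 10.13 in knockout hearts. The groups did not overlap, and the gap between them was 0.20, with an SD of 0.11 in wild type and 0.05 in knockout hearts. The difference was -0.37 (SE 0.10, limma adjusted p = 0.176) or 1.29-fold. It was -0.33 without wild type replicate 3, -0.35 without knockout replicate 1 and -0.31 without both. The other 3 probe sets of Dlst are dimmer and differed by -0.22 (1431011_at), -0.17 (1437775_at) and -0.08 (1430161_at), with adjusted p from 0.533 to 0.915. The last 2 differences were 0.089 and 0.052 without wild type replicate 3, the highest heart in both (5.90 and 4.05). Dld, which is not one of the 9 genes, ranged from 9.76 to 10.17 in wild type and from 9.68 to 9.79 in knockout hearts, a difference of -0.23 (adjusted p = 0.543).

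Succinyl-CoA synthetase makes a nucleoside triphosphate directly. Its alpha subunit, SUCLG1, pairs with SUCLA2 in the ATP-forming enzyme or with SUCLG2 in the GTP-forming one. Suclg1 (1415891_at, its only probe set) read 10.60, 10.87 and 10.94 in wild type and 10.52, 10.54 and 10.59 in knockout hearts. The groups were separated by less than 0.01, wild type replicate 1 being close to the knockout hearts. The difference was -0.25 (SE 0.11, limma adjusted p = 0.453), or -0.17 without wild type replicate 3 and knockout replicate 1. Sucla2 (1452206_at) read 11.24, 11.41 and 11.46 against 11.17, 11.24 and 11.20, with overlap, a difference of -0.17 (SE 0.10, adjusted p = 0.624). Its other probe sets, 1447056_at and 1430402_at, are near the floor of the array, with wild type means of 2.73 and 2.06, and differed by 0.13 and -0.02, with 0.049 for the former without wild type replicate 3. Suclg2 (1435841_s_at), not one of the 9 genes, averaged 10.17 ± 0.16 in wild type hearts and read 9.69, 9.68 and 9.79 in knockout hearts. Its difference was -0.45 (SE 0.11, adjusted p = 0.144), with no overlap. Within each heart the Suclg2 signal minus the Sucla2 signal was -1.24, -1.22 and -1.13 in wild type and -1.49, -1.56 and -1.41 in knockout hearts, a contrast that was picked after the values were seen and was not tested.

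Fumarase turns fumarate into malate, and malate dehydrogenase closes the cycle by regenerating oxaloacetate. Fh1 (1424828_a_at) read 11.12, 11.35 and 11.47 in wild type hearts and 11.08, 11.17 and 11.14 in knockout hearts. Wild type replicate 1 fell within the knockout range, and the difference was -0.19 (SE 0.11, limma adjusted p = 0.625). Leaving out wild type replicate 3 gave -0.11, and leaving out replicate 1 of that group gave -0.28. Mdh2 was measured by a pair of bright probe sets that gave nearly the same value, -0.16 for 1433984_a_at (SE 0.09, adjusted p = 0.618) and -0.15 for 1416478_a_at (SE 0.09, adjusted p = 0.652). Their hearts read 12.59, 12.51 and 12.56 against 12.34, 12.35 and 12.47, and 12.32, 12.33 and 12.46 against 12.21, 12.17 and 12.28. Neither probe set of Mdh2 overlapped between the groups, but both differences were small, at 1.12-fold and 1.11-fold, with 95% intervals that reach 0.05 and 0.06. With quantile normalization repeated, the differences of Mdh2 were smaller, at -0.091 for 1433984_a_at and -0.101 for 1416478_a_at. The order of the main differences was Idh2, Ogdh, Dlst, Cs, Suclg1, Fh1, Sucla2, Mdh2 and Idh3a. Neighbours in that order lay at most 0.067 apart, less than the SE of any of these differences (0.09 to 0.14), so the order is not resolved.

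The bright and the dim probe sets are given apart. The 14 probe sets at or above the 90th percentile of mean signal were all negative (-0.52 to -0.10), and 9 of them had an unadjusted p under 0.05. Of the 8 below it (-0.34 to 0.13), 7 were negative and 1 had such a p, 1447701_x_at of Idh3a. Lower at that limma p were 5.82% of all probe sets, and 7.76% with those up to the 40th percentile dropped. The share of all probe sets on either side of the 90th percentile was not computed, so the bright and dim counts are not compared.

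Across hearts, the enzymes had the same highest heart in most cases and no common order below it. At the main probe sets, wild type replicate 3 was the highest heart for 7 of the 9 genes, and knockout replicate 1 was the lowest for 5 and knockout replicate 2 for 3. The mean over the 9 genes was 11.31, 11.31 and 11.50 in wild type and 11.08, 11.05 and 11.18 in knockout hearts. Every knockout heart was therefore below every wild type heart in this mean. With wild type replicate 3 left out the median difference was -0.19, 7 of the 22 probe sets had an unadjusted limma p under 0.05 (4.82% of all probe sets were lower at that p) and 8 of 9 main differences were negative, Idh3a being the exception. Without knockout replicate 1 the median was -0.24 with 7 of 22 (4.39% of all). Without both it was -0.17 with 5 of 22 (3.63%). The number of members' probe sets with every knockout heart below every wild type heart cannot fall when arrays are left out. It stayed at 12 without wild type replicate 3 and without both arrays. The share of all probe sets rose over these steps from 8.42% to 12.6% and 18.1%.

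**Figure D3:**
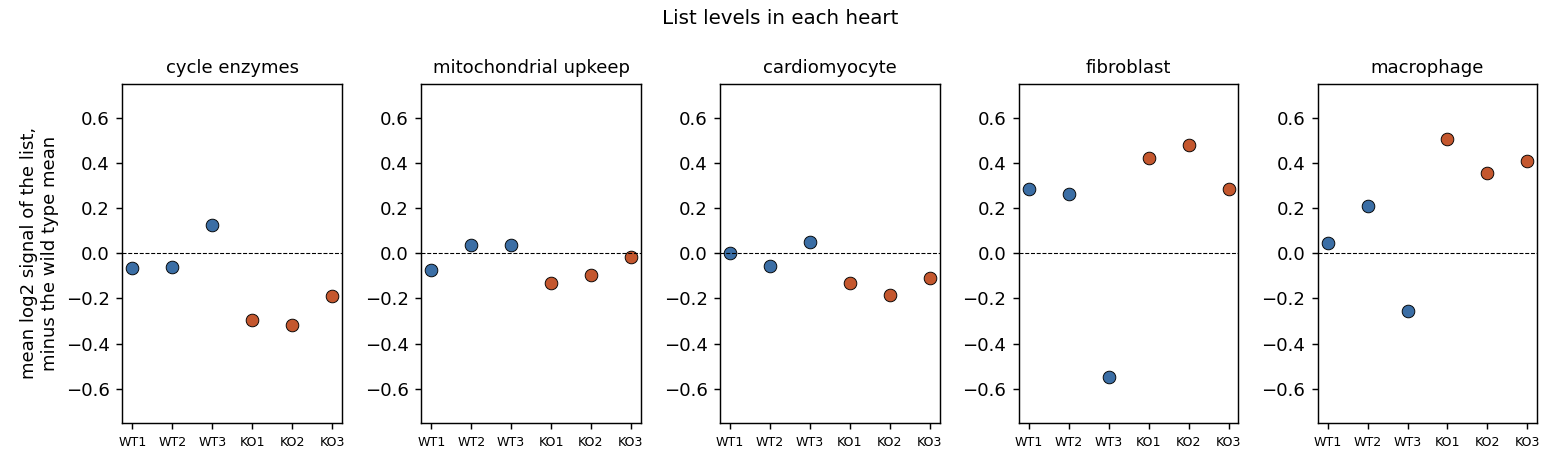
Mean log2 signal of 5 gene lists in each heart, minus the mean of the wild type hearts (y axis), for 3 wild type (WT, blue) and 3 knockout (KO, orange) hearts (x axis). The cycle enzymes are below the wild type hearts in all 3 knockout hearts, and wild type replicate 3 has the highest cycle enzyme mean (11.50) and the lowest fibroblast mean (8.07).

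Cell type markers were read in the same hearts. All 12 cardiomyocyte markers were negative, with a median of -0.13 and 0 past the adjusted threshold by limma (Ryr2 alone had an unadjusted p under 0.05). The log2 of their summed signal was 16.67 to 16.72 in wild type and 16.55 to 16.61 in knockout hearts. Of 10 fibroblast markers 9 were positive, 0 passed and 4 had an unadjusted limma p under 0.05, with a median of 0.38 and summed signals of 12.75 to 13.67 in wild type and 13.69 to 13.86 in knockout hearts. Leaving out wild type replicate 3 gave a median of 0.19, and it was 0.12 without knockout replicate 1 as well. Of 12 macrophage markers 11 were positive, 0 passed and 7 had such a p, with a median of 0.36 and summed signals of 11.54 to 11.94 against 12.01 to 12.13. The corresponding medians were 0.22 and 0.22. Of 10 endothelial markers 5 were positive, with a median of 0.03, and 0 passed (1 at such a p). Among all 18029 main probe sets, 936 were higher and 1142 lower at an unadjusted limma p under 0.05. Array signals have no true 0, so no marker can be called absent. Wild type replicate 3, the heart with the highest cycle enzyme mean, had the lowest fibroblast and macrophage means (8.07 and 7.05). In the list of 8 atrial markers 8 were positive and 1 passed, Nppa, at 1.19 (SE 0.21, adjusted p = 0.0496 by limma). Nppa read 12.67, 12.67 and 11.85 in wild type and 13.78, 13.63 and 13.36 in knockout hearts. The list's summed signals were 11.95 to 12.72 against 13.39 to 15.10, and its median of 1.32 was 0.09 without knockout replicate 1. In knockout replicates 2 and 3 the sums, 13.66 and 13.39, were close to the signal of Nppa alone. The mean log2 signal of the list there was 5.85 and 5.71, against 5.69, 5.58 and 5.55 in wild type hearts. The part of these marker values in the cycle enzyme differences was not tested.

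The rest of the cycle and the reactions around it were also mostly negative. Of 10 measured genes of other cycle subunits and assembly factors, 9 were negative, with a median of -0.17, and 0 passed the limma threshold (3 were lower at an unadjusted p under 0.05, where 6.33% of main probe sets were). These were Suclg2, Sdha (-0.35, adjusted p = 0.286) and Sdhc (-0.25, adjusted p = 0.417), the Sdh genes encoding subunits of succinate dehydrogenase, which is also complex II of the respiratory chain. The list's median was -0.11 with wild type replicate 3 left out. The other IDH3 subunits, Idh3g at -0.20 and Idh3b at -0.13, were looked at for their complex rather than under the naming rule. The 1 positive member was Sdhaf1 (0.12), an assembly factor of succinate dehydrogenase.

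Pyruvate enters through the pyruvate dehydrogenase complex, which PDK kinases switch off and PDP phosphatases switch on. Of 12 genes in this list 10 were negative (median -0.19) and 0 passed. At an unadjusted limma p under 0.05, 3 were lower, as were 6.33% of all main probe sets. Pdk2, a kinase gene, read 8.38, 8.19 and 8.37 against 7.62, 7.47 and 7.96, a difference of -0.63 (SE 0.13, limma adjusted p = 0.0975), more negative than that of any cycle enzyme. The phosphatase genes Pdp2 and Pdpr, the latter a regulatory subunit, were at -0.55 (adjusted p = 0.104) and -0.29 (adjusted p = 0.382), and Pdhx, a structural subunit, was at -0.26 (adjusted p = 0.521). The list's 2 positive genes were also kinase genes, Pdk3 at 0.49 (adjusted p = 0.560) and Pdk4 at 0.09 (adjusted p = 0.887), named here for their sign and outside the naming rule.

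Of 16 genes for side reactions, metabolite carriers and cytosolic counterparts, 14 were negative (median -0.20) and 0 passed. At an unadjusted limma p under 0.05, 6 were lower, as were 6.33% of all main probe sets. The aspartate-glutamate carrier genes Slc25a13 and Slc25a12, which serve the malate-aspartate shuttle, were at -0.40 (adjusted p = 0.145) and -0.42 (adjusted p = 0.228). Me3, a mitochondrial malic enzyme, was at -0.46 (adjusted p = 0.149) and Idh1, the cytosolic isocitrate dehydrogenase, at -0.29 (adjusted p = 0.298). Leaving out wild type replicate 3 moved the median to -0.10. The list of mitochondrial upkeep genes, with outer membrane pores, import, chaperones and genome maintenance, was closer to 0. Of its 13 genes 10 were negative with a median of -0.09, 0 passed and 2 had such a p, Twnk (-0.28), the mitochondrial DNA helicase, and Tufm (-0.26), an elongation factor. Hspd1, a matrix chaperone, was at -0.20 and the pore gene Vdac1 at -0.16. Measured against the mean of this list in the same heart, the 9 enzymes were at 1.70, 1.60 and 1.79 in wild type hearts and 1.53, 1.47 and 1.53 in knockout hearts, a difference of -0.19 without overlap. Measured against the mean of the cardiomyocyte markers, they were at -1.55, -1.49 and -1.41 in wild type and -1.64, -1.62 and -1.56 in knockout hearts. That difference was smaller, at -0.13, and the groups were only 0.0098 apart. In both measures wild type replicate 3 was the highest heart, and values without it or knockout replicate 1 were not computed. The cardiomyocyte markers lie near the top of the scale, where differences can be compressed. Neither measure was tested.

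**Figure D4:**
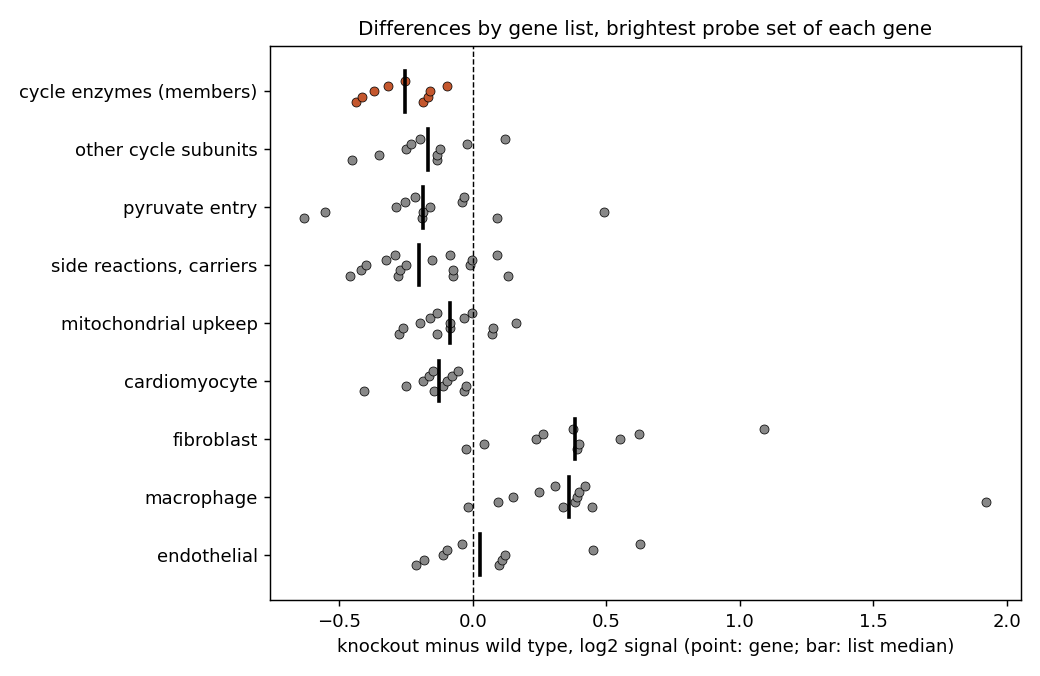
Difference between knockout and wild type hearts in log2 signal (x axis) for each gene's main probe set, by list (y axis), with a bar at the list median. The median is -0.25 for the 9 cycle enzymes, -0.17 for other cycle subunits and -0.19 for pyruvate entry. It is -0.20 for side reactions, carriers and cytosolic counterparts, and -0.09 for mitochondrial upkeep. For cardiomyocyte markers it is -0.13, and for fibroblast, macrophage and endothelial markers 0.38, 0.36 and 0.03.

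The genes whose level followed the 9 enzymes most closely from heart to heart were found by Pearson's r with the mean standardised profile of the main probe sets over the 6 hearts. The 6 highest of 18020 other genes were Aldh6a1, Cyp4f16, Tcaim, Slc36a2, Hadha and Myo5c, with r from 0.995 to 0.999. They are the extreme of a ranking over only 6 hearts in 2 groups, and 520 of the genes exceeded 0.9. Aldh6a1, a mitochondrial dehydrogenase of valine breakdown, differed by -0.46 (limma adjusted p = 0.171), and Hadha, the alpha subunit of the trifunctional protein of fatty acid oxidation, by -0.54 (adjusted p = 0.147). Tcaim, a mitochondrial protein gene, was at -0.56 and the amino acid transporter gene Slc36a2 at -0.82 (adjusted p = 0.127 and 0.116). Cyp4f16 and Myo5c differed by only -0.18 and -0.21 (limma adjusted p = 0.562 and 0.471). Myo5c was dim, with a wild type mean of 2.82, so a high r was also reached by a probe set of low signal.

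Promoters were looked at because all main differences had the same sign. RefSeq promoter windows (GRCm38.p6, 250 bases before to 50 after a start) were matched for 8 of the 9 genes, in 13 windows. They were searched on both strands for letters bound by regulators of mitochondrial genes, namely TNAAGGTCA for ERR receptors, the core NRF1 motif and CCGGAAGT for ETS factors such as GABP. Over 32851 windows of all genes, 1.28%, 4.60% and 3.89% held these letters. Among the members' windows 0 held the ERR letters, 1 held the NRF1 letters (Sucla2) and 1 the ETS letters (Dlst). The motifs do not overlap one another in these windows, a match is a description and not a site, and no match says only that the letters are not there. The windows with a match are shown 5′ to 3′ on the plus strand, with the match in capitals, for Dlst at chr12:85110583-85110882 and for Sucla2 at chr14:73552536-73552835. The Dlst match is on the reverse strand of the motif.
Dlst: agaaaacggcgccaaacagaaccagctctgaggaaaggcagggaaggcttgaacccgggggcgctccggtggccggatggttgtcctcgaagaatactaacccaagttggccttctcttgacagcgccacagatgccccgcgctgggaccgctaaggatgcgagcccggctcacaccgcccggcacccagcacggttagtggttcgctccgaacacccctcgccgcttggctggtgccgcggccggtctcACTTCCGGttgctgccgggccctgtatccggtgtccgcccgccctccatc
Sucla2: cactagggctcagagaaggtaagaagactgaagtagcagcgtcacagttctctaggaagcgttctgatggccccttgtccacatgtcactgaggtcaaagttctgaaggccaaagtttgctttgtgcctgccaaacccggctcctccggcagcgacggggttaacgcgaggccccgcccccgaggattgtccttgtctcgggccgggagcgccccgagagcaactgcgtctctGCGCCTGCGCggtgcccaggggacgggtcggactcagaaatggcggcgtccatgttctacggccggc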

How the data were processed

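The values are log2 signals per probe set that the authors deposited, made with RMA per the submitters' processing notes, which also name limma. The versions they used are not given in the sources used here. This method makes the arrays' distributions alike, so an overall shift between groups is removed and differences at either end of the scale can be compressed. Biotin-labelled RNA was made from 400 ng of total RNA, per the labels' protocols. The table had 38208 rows, of which 13 control probe sets were left out. The supplied platform annotation gave 34325 probe sets 1 symbol, 62 several and 3808 none, and 0 symbols changed by Entrez lookup in the GRCm38.p6 table.

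Knockout and wild type were compared by limma 3.58.1 (R 4.3.3, lmFit and eBayes, no covariates). The code was tested on simulated data, where 10 of 67 changes of 0.5 log2 units passed the threshold. Of changes of 1 unit 61 of 67 passed, and of 2 units 66 of 66. The most negative member difference was -0.52, so a member that did not pass is not shown to be unchanged. Named genes were all members, Tmbim1, up to 4 genes of each other list with the smallest unadjusted p, and the 6 genes most like the members' profile. The members and lists were chosen with earlier results of these data known. Alternatives were a replicate block, trended and robust priors, array weights, repeated quantile normalization, centring on array medians, dropping the dimmest probe sets (up to the 40th percentile), 1 probe set or the mean per gene, and arrays left out. Some listed genes were not analysed here. The 3 arrays per group limit the precision of every value. Scan dates were not analysed here and no batch was tested.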

Additional observations from a re-analysis of the deposited data

How the results depend on the processing

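With 0 member probe sets past the threshold in the limma fit, 0 passed under each of the 16 alternatives as well, and the lowest adjusted p among members was 0.118 over all of them, with the filter on dim probe sets. The median difference of the members was -0.17 without knockout replicate 1 and wild type replicate 3 together, and with single arrays left out the lowest was -0.34, without wild type replicate 1, and the highest -0.19, without wild type replicate 3. The count over all probe sets was 161, and it was 102 with 1 main probe set per gene and 84 with probe sets averaged per gene, where fewer features were tested. It was 38 to 86 with single arrays left out and 29 without the pair. Of 315 values of single member probe sets under the alternatives, 7 changed sign, none of them past the threshold. Without wild type replicate 3, and then also without knockout replicate 1, Dlst 1430161_at was at 0.052 and 0.043, Dlst 1437775_at at 0.089 and 0.090 and Idh3a 1432016_a_at at 0.032 and 0.036. Without wild type replicate 1, Sucla2 1430402_at was at 0.036. With single arrays left out these ran from -0.26 to 0.052, -0.36 to 0.089, -0.19 to 0.032 and -0.056 to 0.036. The cause was not tested. With the replicate block, 168 probe sets passed, 0 of them members. Deviations of arrays with the same number correlated at 0.06, 0.14 and 0.02, and 3 of 6 arrays correlated best with their own number. The labels give no pairing beyond the number, and with 3 arrays per group these values do not settle whether there was one.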
